A study of Mus musculus with 2 samples.

Results

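The Tex genes of the mouse, numbered genes named after transcripts first found as expressed in the testis, were described in spermatogonial progenitor cells (SPCs), germ cells that feed spermatogenesis. Genes were chosen by a symbol made of Tex and a number, and 36 of the 23241 genes named in the data are described. Poly(A) RNA came from 1 library of Dnmt3l knockout mice and 1 library of wild-type mice, both C57BL/6 and both taken from testes at 8 days after birth. Dnmt3l encodes a cofactor, without catalytic activity of its own, of the enzymes that lay down new DNA methylation, and its knockout is the only difference the labels give between the libraries. The labels give neither the number of animals behind a library nor how the cells were purified. Since each genotype has 1 library, no difference below could be checked against replicates or tested, and the values describe these libraries.

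The Tex genes are not a sequence family, and the shared name says only where the transcripts were first noticed. Some are known for their work in germ cells: TEX14 keeps dividing germ cells joined by intercellular bridges, TEX15 acts in the piRNA-guided DNA methylation of transposons in fetal male germ cells, TEX19.1 restrains retrotransposons and is also made in placenta and pluripotent cells, and TEX11 acts in crossing over during meiosis. Others are housekeeping proteins, such as TEX10 of ribosome assembly and TEX264, a receptor for the autophagy of endoplasmic reticulum. Many of the rest are transcribed in haploid spermatids, a stage not yet reached in testes of this age.

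Levels are FPKM, in which fragment numbers are divided by transcript length and library size. They were summed, per gene, over its RefSeq transcripts and the models that were assembled in each library. The bounds given with them are the summed bounds deposited with each transcript, which cover the estimate within a library and not the spread between animals. Ratios are log2((knockout FPKM + 1)/(wild-type FPKM + 1)), a scale that understates differences of low genes. The files hold no read counts. Per unit of FPKM, the median coverage was 3.45 in the knockout and 3.13 in the wild-type library. Dnmt3l itself was listed at 0 in the knockout library, and at 1.67 FPKM (bounds 0.791 to 2.68) in the wild-type library. Markers of cell types were read beside the label SPC. All 8 general germ cell markers and all 14 markers of undifferentiated spermatogonia were above 0 in both libraries. The same held for all 12 Sertoli cell markers, so values above 0 do not test what the cells are. The markers of undifferentiated spermatogonia summed to 388 FPKM in the knockout and 357 FPKM in the wild-type library, with 10 of 14 higher in the knockout library. Over all genes compared 66.0% were higher in the knockout library, a share that belongs beside this count and those of the marker lists below. The 11 markers of differentiating spermatogonia summed to 298 FPKM in the knockout and 359 FPKM in the wild-type library, with 5 higher and none at 0. Markers of somatic testis cells were present as well. The 12 Sertoli cell markers summed to 1010 FPKM in the knockout and 437 FPKM in the wild-type library, with 11 of 12 higher in the knockout library and none at 0, Clu being the most abundant. The 10 macrophage and leukocyte markers summed to 815 FPKM in the knockout and 439 FPKM in the wild-type library, with 7 higher and Cd68 listed at 0 in the knockout library. The 7 Leydig cell markers summed to 163 and 75.1 FPKM in the knockout and wild-type libraries, with 5 of the 6 compared higher and Star listed at 0 in both. A listed 0 can also be a failed estimate, and whether those of Cd68 and Star are was not tested. The 8 endothelial markers summed to 136.8 FPKM in the knockout and 67.9 FPKM in the wild-type library, with 6 higher and none at 0. The 8 peritubular and stromal markers summed to 975 and 741 FPKM in the knockout and wild-type libraries, with 6 higher and none at 0. The general germ cell markers summed to 803 FPKM in the knockout and 962 FPKM in the wild-type library, with 3 of 8 higher in the knockout library. The part of these differences in any difference below was not tested, and in bulk RNA fewer cells of a type cannot be told apart from less RNA per cell.

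Promoter windows of 29 of the 36 genes were matched by symbol in RefSeq sequences of GRCm38.p6, each reaching from 250 bases before to 50 bases after the first base of the transcript, 300 bases in all. They are shown because DNMT3L acts through cytosine methylation, which in mammals falls mainly on C followed by G. No methylation was measured here. The 250 bases upstream of 4 starts are printed with each CG in capitals. Tex19.1 and Tex14 are abundant genes with a CG-rich window, Tex19.2 is an expressed gene with a CG-poor window, and Tex37 stands for the genes under 1 FPKM.
Tex19.1 (chr11:121145893-121146142, plus strand): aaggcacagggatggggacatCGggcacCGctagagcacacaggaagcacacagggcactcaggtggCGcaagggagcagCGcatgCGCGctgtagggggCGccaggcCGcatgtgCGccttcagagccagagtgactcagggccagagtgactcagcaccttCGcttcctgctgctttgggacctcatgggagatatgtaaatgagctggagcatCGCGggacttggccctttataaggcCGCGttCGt
Tex14 (chr11:87404815-87405064, plus strand): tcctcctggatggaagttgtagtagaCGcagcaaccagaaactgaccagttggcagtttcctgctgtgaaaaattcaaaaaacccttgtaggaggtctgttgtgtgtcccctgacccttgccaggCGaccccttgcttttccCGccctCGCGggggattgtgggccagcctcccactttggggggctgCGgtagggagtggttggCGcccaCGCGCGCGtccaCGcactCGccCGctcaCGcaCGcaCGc
Tex19.2 (chr11:121118678-121118927, minus strand): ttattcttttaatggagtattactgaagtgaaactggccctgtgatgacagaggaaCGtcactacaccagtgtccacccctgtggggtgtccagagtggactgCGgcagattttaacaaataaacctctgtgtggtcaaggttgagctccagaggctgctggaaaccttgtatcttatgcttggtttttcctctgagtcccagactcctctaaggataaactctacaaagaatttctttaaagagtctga
Tex37 (chr6:70918923-70919172, minus strand): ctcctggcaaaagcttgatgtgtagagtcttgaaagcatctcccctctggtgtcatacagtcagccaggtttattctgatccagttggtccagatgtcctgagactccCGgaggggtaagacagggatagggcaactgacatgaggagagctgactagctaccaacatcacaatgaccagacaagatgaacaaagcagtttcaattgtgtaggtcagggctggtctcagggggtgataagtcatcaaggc
The printed stretches hold 15 CGs for Tex19.1, 17 for Tex14, 2 for Tex19.2 and 1 for Tex37. In the full windows of the 14 matched genes of 1 FPKM or more in at least 1 library the median was 18 CGs, with a range of 0 to 41. In the windows of the 15 matched genes under 1 FPKM in both libraries the median was 3, with a range of 0 to 5. The same split held for genes in general, with a median of 20 CGs over 10997 genes of 1 FPKM or more and 3 over 6684 others, so the Tex genes followed the general pattern. Among the expressed Tex genes only Tex16 (0 CGs), Tex19.2 (2) and Tex21 (6) had fewer than 13. The window of Tex16 lies at the start of its RefSeq transcript in the files, whereas the longest assembled model of Tex16 starts 196762 nt upstream of it in the knockout and 198586 nt upstream in the wild-type library. An E2F-family motif with the letters TTCCCGC, searched on both strands, was found in the windows of Tex9, Tex14, Tex26 and Tex30, 4 of 14 expressed Tex genes, and in 0 of the 15 others, against 8.56% of all expressed genes and 2.09% of the other genes. The E-box CACGTG reads the same on both strands and does not overlap the other motif. It was found in the window of Tex10, 1 of 14 expressed Tex genes, against 10.4% of all expressed genes. Among the 15 others it was found in 1, Tex36, against 4.55% of the other genes.

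**Figure D1:**
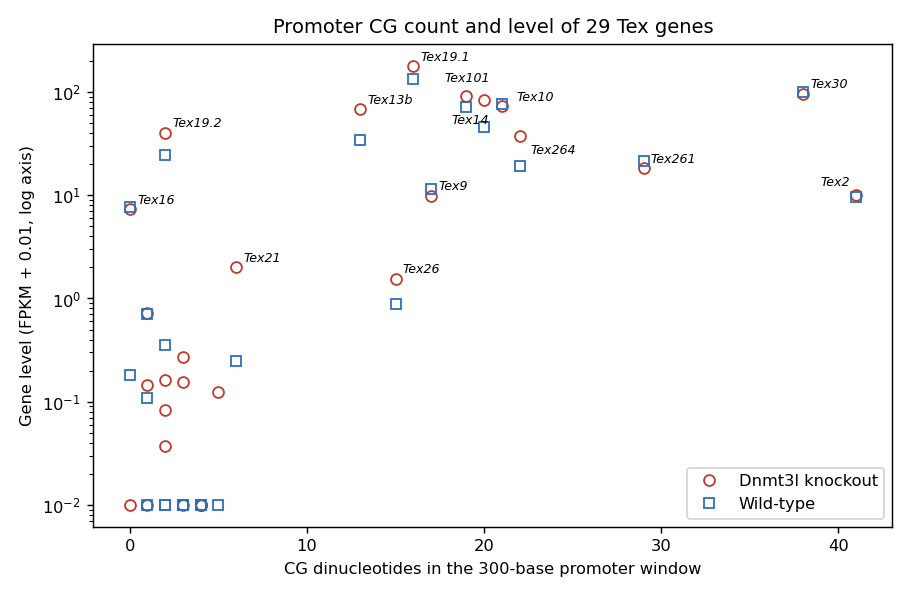
Level of 29 Tex genes (y axis, FPKM + 0.01, log scale) against the number of CG dinucleotides in the 300-base promoter window (x axis), as circles for the Dnmt3l knockout and squares for the wild-type library. The 15 genes under 1 FPKM lie at 0 to 5 CGs, and of the 14 expressed genes, which carry names, only Tex16, Tex19.2 and Tex21 have 6 or fewer.

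Of the 36 Tex genes, 16 reached 1 FPKM in at least 1 library and 20 did not, against 61.5% of all genes that did. The 36 genes lay on 13 chromosomes. The 6 X-linked genes were split evenly, with Tex11, Tex13b and Tex16 expressed and Tex13a, Tex13c1 and Tex28 under 1 FPKM. All 4 genes on chromosome 11 were expressed. The summed level of all 36 was 823 FPKM in the knockout and 647 FPKM in the wild-type library.

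At least 2-fold higher in the knockout library was 1 of the 16 genes, against 7.7% of all 13797 genes compared, and this was Tex21, a gene of low level. At least 2-fold lower was 0 of 16, against 3.52%. After centring on the median gene the counts of Tex genes were also 1 and 0, while the shares of all genes were 4.90% higher and 5.44% lower. By the summed level 10 of the 16 ratios were above 0 and 6 below. The median log2 ratio of the 16 genes was 0.37, and that of all genes compared was 0.22. The bounds of the libraries did not overlap for 9 of the 16 genes, against 51.6% of all genes. Of the 16, 8 had bounds apart and a higher value in the knockout library, against 35.5% of all genes, and 1 had bounds apart and a lower value, against 16.1%. Bounds that stand apart were thus common between these libraries. By role, the 8 germ cell genes had ratios of -0.28 to 0.98, with 6 above 0 and 2 below, while 66.0% of all genes compared were above 0. At the exon level, a mean over the exon bases of a gene, 4 were above 0 and 4 below, and the median ratio of the 8 was 0.06, against 0.48 by the summed level. The 8 genes had a summed level of 572.5 FPKM in the knockout and 405.6 FPKM in the wild-type library. Among the 4 genes used in many cell types 2 ratios were above 0 and 2 below, and the same held for the 4 less characterised genes.

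**Figure D2:**
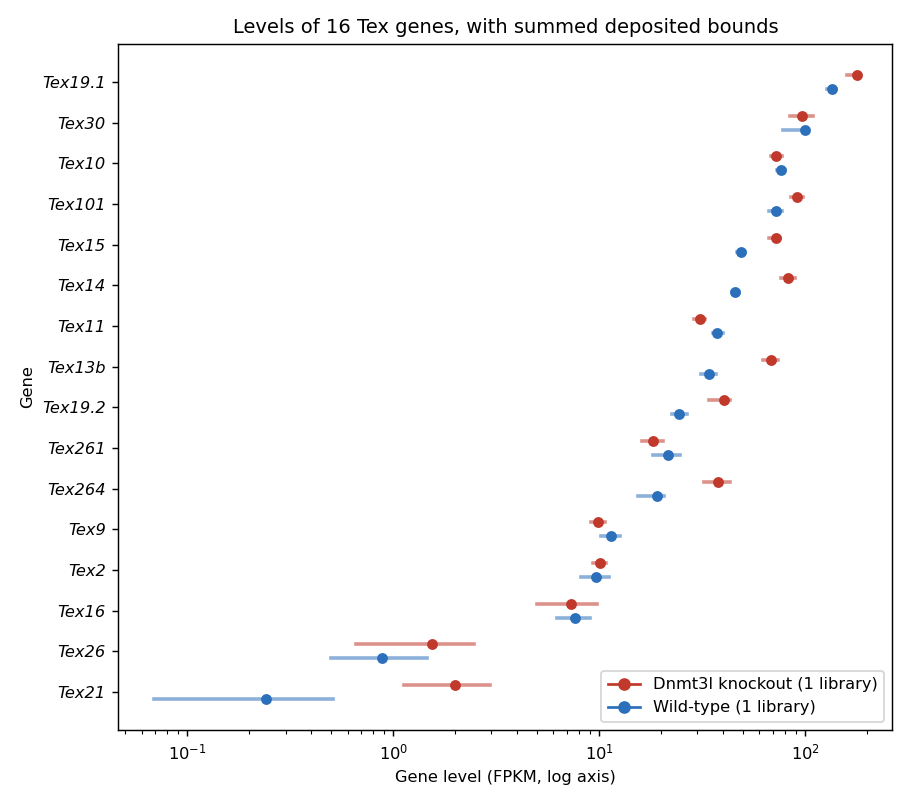
Level of each of the 16 Tex genes of 1 FPKM or more in at least 1 library (x axis, FPKM, log scale), with the Dnmt3l knockout library drawn above the wild-type library. Points are gene levels and bars are the summed deposited bounds. Bars stand apart for 9 genes, of which Tex11 alone is lower in the knockout library, and the knockout point of Tex19.1 lies beyond the end of its own bar.

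Where along the transcript the level was read changed the direction for part of the genes. A second measure, the exon level, takes every RefSeq exon base of a gene, adds up the FPKM of whatever models span it on both strands, and averages the bases. By this measure 9 of 16 ratios were above 0 and 7 below, while 62.8% of all genes compared were above 0. The median log2 ratio of the 16 was 0.05 at the exon level, against 0.16 over all genes compared. None of the 16 was 2-fold higher, against 4.86% of all genes, and none 2-fold lower, against 2.93%. The sign differed between the summed and the exon level for 3 of the 16, against 10.3% of all genes. These were Tex14 (0.84 by sum and -0.21 at the exon level), Tex15 (0.55 and -0.98) and Tex10. Only the ratios of Tex10 were near 0 by both measures. Among the 10 expressed Tex genes of 2000 nt or more, the log2 ratio over the first 1000 nt lay below that over the last 1000 nt in 7, against 54.2% of 9341 genes of that length. The median ratio of the 10 was -0.02 at the 5′ end and 0.33 at the 3′ end, and over all genes of that length it was -0.08 and 0.11. Length mattered across all genes: the median ratio was 0.54 for the 1213 genes under 1000 nt and -0.35 for the 528 genes of 8000 nt or more. The plot of ratios by measure shows both levels and both ends for each gene.

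**Figure D3:**
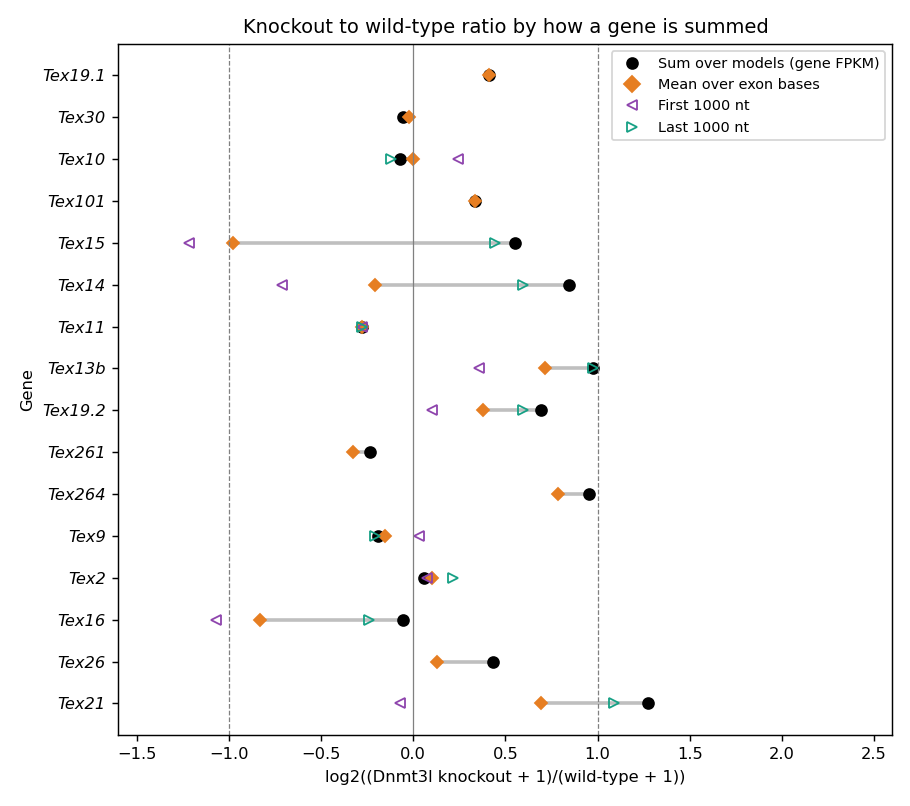
Log2 ratio of the Dnmt3l knockout to the wild-type library (x axis) for 16 Tex genes in order of wild-type level. Black circles are summed gene FPKM, orange diamonds the exon level, and open triangles the first and last 1000 nt of genes of 2000 nt or more. For Tex14 and Tex15 the summed level lies above 0 and the exon level below it.

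The germ cell genes are taken first. Tex19.1 (chromosome 11, 121146143 to 121148313, plus strand, mm10), which encodes the retrotransposon-restraining protein that binds the ubiquitin ligase UBR2, had the highest level of the 36 genes. It was at 179.4 FPKM in the knockout and 134.7 FPKM (bounds 128.3 to 141.3) in the wild-type library, above 97.2% and 97.1% of the genes compared in the knockout and wild-type libraries. The deposited bounds of the knockout value, 160.4 to 172.7, do not contain the value itself, but they lie above the wild-type bounds. The log2 ratio of Tex19.1, 0.41, came from a single RefSeq transcript of 3 exons with no assembled model. Every part of the transcript therefore gave the same ratio. This transcript has 1739 nt, and the median ratio over the 3243 genes of 1000 to 2000 nt was also 0.41. Ubr2 was at 17.2 and 25.1 FPKM in the knockout and wild-type libraries, and the E2 enzymes that work with this ligase family were, in the same libraries, at 16.7 and 10.8 FPKM (Ube2a) and at 228.1 and 210.4 FPKM (Ube2b). None of these 3 differed 2-fold, while 7.7% of all genes compared were at least 2-fold higher and 3.52% at least 2-fold lower.

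Tex19.2 (chromosome 11, 121116215 to 121118677, minus strand) is the paralog of Tex19.1 in the same chromosome region. It was at 40.3 FPKM (34.0 to 43.1) in the knockout and 24.5 FPKM (22.5 to 26.6) in the wild-type library. All of the wild-type level lay on the RefSeq transcript. The knockout library listed that transcript at 11.9 FPKM, beside an assembled model of 1565 nt at 28.4 FPKM that starts in intron 1. Exon 1 was therefore at 11.9 in the knockout and 24.5 in the wild-type library, and exon 2 at 40.3 and 24.5. The value in the knockout library was lower at exon 1 and higher at exons 2 and 3. Longest transcripts of the pair, from GENCODE M21, aligned over 1106 bases with 83.5% identity. They shared 50 identical windows of 50 nt and 0 of 100 nt, the read length. Windows with a few mismatches were not counted, and whether reads were shared between the 2 genes was not tested.

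Tex14 (chromosome 11, 87405065 to 87555823, plus strand) encodes the bridge protein. Its summed level was 83.0 FPKM (76.8 to 89.3) in the knockout and 45.8 FPKM (44.4 to 48.0) in the wild-type library, a log2 ratio of 0.84. The wild-type level lay wholly on 1 RefSeq transcript of 31 exons. In the knockout library the same transcript, NM_031386, was at 27.5 FPKM, and a model of 11 exons and 1136 nt, which begins in intron 21, was at 55.4 FPKM. Exons 2 to 21 thus stood at 27.5 in the knockout and 45.8 in the wild-type library, and exons 22 to 30 at 83.0 and 45.8. Of the 10 splice junctions of the short model 9 are annotated, and the first, out of intron 21, is in neither RefSeq nor GENCODE M21. Over all exon bases the ratio was -0.21, so a higher or lower level of Tex14 cannot be stated without naming the part of the transcript. Of 6 other bridge genes none differed 2-fold, against 7.7% of all genes compared that were higher and 3.52% that were lower. Among them Tsg101 was at 61.7 and 46.9 FPKM in the knockout and wild-type libraries, Racgap1 at 37.8 and 34.2, Kif23 at 25.2 and 26.2, and Rbm44 at 17.1 and 26.4. Their median ratio was -0.02.

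Tex15 is known for transposon methylation guided by piRNAs, and for recombination in meiosis (chromosome 8, 33570544 to 33585585, plus strand). It was at 72.2 FPKM (67.0 to 75.3) in the knockout and 48.9 FPKM (46.6 to 51.2) in the wild-type library by sum. The first RefSeq exon, of 7035 nt, holds most of the transcript. Both assembled models of the wild-type library kept this exon and stood at 22.9 and 7.23 FPKM beside the RefSeq transcript at 18.8. The knockout library held a model of 2793 nt at 59.4 FPKM whose splicing leaves out 6655 nt of that exon, 94.6% of it, and the RefSeq transcript at 12.8 FPKM. Averaged over the long exon the level was 15.7 in the knockout and 48.8 in the wild-type library, a log2 ratio of -1.57, while the 1235-nt exon 3 was at 72.2 and 48.9. All 3 models begin far upstream of the RefSeq start, by 53247 to 53854 nt. Of their splice junctions, 8 of 12 in the knockout model and 9 of 10 and 10 of 10 in the wild-type models are in GENCODE M21. The RefSeq transcript has 8408 nt, and the median exon-level ratio of all genes of 8000 nt or more was -0.49, against -0.98 for Tex15. The part of this length trend in the value of Tex15 was not tested.

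Genes that work beside Tex15 in the nuclear piRNA pathway did not differ 2-fold in any of the 5 measured of 7 listed. Among all genes compared, 7.7% were at least 2-fold higher and 3.52% at least 2-fold lower. Mael, also counted among the germ cell markers, was at 197.8 and 168.7 FPKM in the knockout and wild-type libraries and Morc1 at 37.0 and 32.4. Dnmt3a, the methyltransferase partner of DNMT3L, was at 22.1 and 20.9, and Tdrd9 at 21.8 and 30.5. The median ratio of the 5 was 0.19, and that of all genes 0.22.

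Tex11 (chromosome X, 100838648 to 101059639, minus strand), an X-linked gene of meiotic crossing over, was the only gene with bounds apart that was lower in the knockout library. It was at 30.8 FPKM (29.01 to 32.7) in the knockout and 37.6 FPKM (35.5 to 39.8) in the wild-type library, a log2 ratio of -0.28. A single RefSeq transcript of 30 exons carried the level in both libraries, so both ends had to give the same ratio. Crossover genes beside it were low. Ccnb1ip1 was at 9.08 and 7.62 FPKM in the knockout and wild-type libraries, Msh5 at 6.56 and 8.39, Hfm1 at 3.79 and 4.83, and Msh4 at 2.45 and 3.18. The median ratio of these 4 was -0.28, with 3 of 4 below 0, while 66.0% of all genes compared were above 0. None of the 4 differed 2-fold, against 7.7% of all genes compared that were higher and 3.52% that were lower.

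Tex101 (chromosome 7, 24668012 to 24672050, minus strand) encodes a surface protein of germ cells that is needed for fertile sperm. It was at 91.5 FPKM (85.6 to 97.4) in the knockout and 72.4 FPKM (67.2 to 77.7) in the wild-type library, from a single transcript of 6 exons. Its ratio of 0.33 was below the median of 0.41 over the 3243 genes of 1000 to 2000 nt. Ly6k, whose product binds TEX101, went the other way, at 1.89 FPKM in the knockout and 4.79 FPKM in the wild-type library, a ratio of -1.01. Of the 7 genes listed beside Tex101, 6 were found and 4 reached 1 FPKM in at least 1 library. Of these 4 only Ly6k differed 2-fold, while 3.52% of all genes compared were at least 2-fold lower. The others of the 4 were Tpst2 at 18.54 and 18.46 FPKM in the knockout and wild-type libraries, Clgn at 14.4 and 9.30, and Calr3 at 4.23 and 2.41.

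Tex13b (chromosome X, 140808307 to 140813433, minus strand), one of a group of X-linked testis genes, had a ratio of 0.98, just under 2-fold. It was at 68.0 FPKM (62.6 to 73.6) in the knockout and 34.0 FPKM (31.4 to 36.8) in the wild-type library. RefSeq transcript NM_031381 was listed at 0 in both, and assembled models carried the whole level. Models of 4246 and 4648 nt in the knockout library, at 11.3 and 6.91 FPKM, had counterparts with the same splice junctions in the wild-type library, of 4223 and 4625 nt at 21.6 and 12.5 FPKM. A model of 1645 nt at 49.8 FPKM was listed for the knockout library alone and leaves out exon 2, of 485 nt. That exon was at 18.2 in the knockout and 34.0 in the wild-type library, and exons 3 and 4 at 68.0 and 34.0. Its relatives Tex13a and Tex13c1 were at 0.0271 FPKM or below in both libraries.

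Tex16 (chromosome X, 112093520 to 112127326, plus strand) was at 7.33 FPKM (5.003 to 9.73) in the knockout and 7.66 FPKM (6.27 to 9.06) in the wild-type library, a difference inside the bounds. A single-exon model of 641 nt at the 3′ end carried 4.21 of the knockout FPKM. Exons 1 to 3 were at 3.12 in the knockout and 7.66 in the wild-type library, and exon 4 at 7.33 and 6.14. Its exon-level ratio was -0.83. The profiles of summed level along the transcript show these steps, which are sums of whole models and not read coverage.

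**Figure D4:**
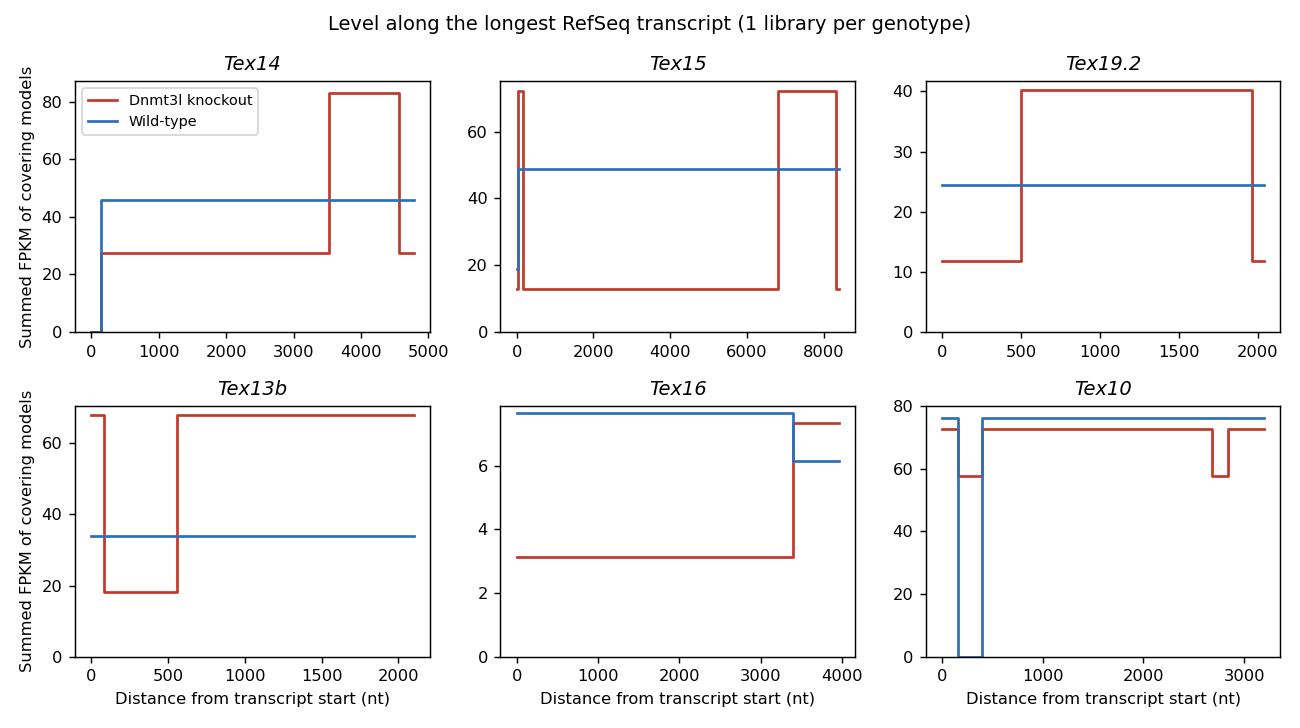
Summed FPKM of all models covering each position (y axis) against distance from the start of the longest RefSeq transcript (x axis, nt) in the Dnmt3l knockout and wild-type libraries. The knockout line of Tex14 steps up from 27.5 to 83.0 after exon 21, that of Tex15 stays at 12.8 over most of the long exon, and the wild-type line of Tex10 is at 0 over exon 2.

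Among the genes used in many cell types, Tex10 (chromosome 4, 48430956 to 48473422, minus strand), a subunit of the complex that processes ribosomal RNA, was at 72.6 FPKM (68.5 to 77.2) in the knockout and 76.3 FPKM (73.3 to 80.1) in the wild-type library. The bounds overlapped. The split among transcripts was not alike. Transcript NM_172304, which includes exon 2 of 236 nt, was at 57.7 FPKM in the knockout library and listed at 0 in the wild-type library, where a model without exon 2 carried all 76.3 FPKM. That model has all 14 of its junctions in GENCODE M21. Exon 2 was thus at 57.7 in the knockout library and listed at 0 in the wild-type library. A listed 0 for a RefSeq transcript can also be a failed estimate. The other subunits were uneven, with 2 of 6 at least 2-fold lower in the knockout library, against 3.52% of all genes compared. The median of the 6 was -0.18, and that of the 5 above 0 in both libraries, without Senp3, was 0.03. Mdn1, a giant ATPase gene of 17959 nt, was at 37.6 and 150.9 FPKM in the knockout and wild-type libraries. Senp3 was listed at 0 in the knockout library and at 82.1 FPKM in the wild-type library, Wdr18 was at 54.9 and 53.8, and Pelp1 at 40.8 and 32.4.

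Tex264 (chromosome 9, 106658746 to 106685948, minus strand), the autophagy receptor gene, was at 37.8 FPKM (32.3 to 43.3) in the knockout and 19.0 FPKM (15.4 to 20.7) in the wild-type library, a ratio of 0.95. By transcript, NM_001081654 was at 17.1 FPKM in the knockout and 19.0 in the wild-type library, and NM_011573 at 4.39 in the knockout library and listed at 0 in the wild-type library. An assembled model with annotated junctions at 16.3 was listed for the knockout library alone. Exons 2 to 5 were at 37.8 and 21.5 in the knockout and wild-type libraries. The wild-type figure includes a read-through model of 2.49 FPKM shared with Rad54l2, the neighbouring gene. None of 6 other receptors of this pathway differed 2-fold, against 7.7% of all genes compared that were higher and 3.52% that were lower. Calcoco1 was at 47.9 and 29.5 FPKM in the knockout and wild-type libraries, Rtn3 at 45.3 and 45.1, Sec62 at 27.9 and 26.1, and Ccpg1 at 24.0 and 39.4.

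By the summed level Tex2 and Tex261 differed little, with ratios of 0.06 and -0.24. Tex2 (chromosome 11, 106502139 to 106612930, minus strand), a lipid-binding protein of endoplasmic reticulum, was at 10.05 FPKM (9.32 to 10.8) in the knockout and 9.62 FPKM (8.15 to 11.1) in the wild-type library. Tex261 (chromosome 6, 83770414 to 83775812, minus strand) stood at 18.2 FPKM (16.2 to 20.4) in the knockout and 21.7 FPKM (18.3 to 24.7) in the wild-type library. Both pairs of bounds overlapped. Models of Tex261 reached 1521 nt past the RefSeq end in the knockout and 1493 nt in the wild-type library.

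The less characterised genes spanned the whole range of level. Tex30 (chromosome 1, 44086617 to 44102388, minus strand) stood at 96.8 FPKM (84.8 to 108.9) in the knockout and 100.5 FPKM (78.3 to 103.2) in the wild-type library. Its one RefSeq transcript was at 27.8 FPKM in the knockout and 12.9 FPKM in the wild-type library, and the rest lay on 3 models in the knockout and 2 in the wild-type library. Exon 3, of 56 nt, which these models leave out, was at 27.8 in the knockout and 12.9 in the wild-type library, while exons 4 to 7 were at 96.8 in the knockout and 100.5 in the wild-type library. Tex9 (chromosome 9, 72458055 to 72491959, minus strand) stood at 9.89 FPKM (9.09 to 10.7) in the knockout and 11.4 FPKM (10.2 to 12.6) in the wild-type library. The last exon of Tex9 shares 264 exon bases with Mns1 on the opposite strand, at 36.3 FPKM in the knockout and 41.8 FPKM in the wild-type library, and without strand marking in the protocol those reads cannot be told apart.

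Tex21 (chromosome 12, 76198690 to 76246746, minus strand) stood at 2.00 FPKM (1.12 to 2.94) in the knockout and 0.240 FPKM (0.0685 to 0.508) in the wild-type library. A 5-exon model over exons 6 to 9 carried 1.897 of the knockout FPKM, and exons 1 to 5 were at 0.101 in the knockout and 0.240 in the wild-type library. The 2-fold call therefore rested on a model of mean coverage 6.53 within the gene. Tex26 (chromosome 5, 149439706 to 149470620, plus strand) was at 1.54 FPKM (0.658 to 2.47) in the knockout and 0.883 FPKM (0.497 to 1.46) in the wild-type library, with overlapping bounds.

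In the 11 genes of these 16 with assembled models in the knockout library, 17 models held 93 splice junctions, counted per model, and in the 9 such genes of the wild-type library 14 models held 112. Of these junctions 76 of 93 in the knockout and 93 of 112 in the wild-type library were in GENCODE M21. A model or RefSeq transcript with the same chain of junctions was in the other library for 5 of the 17 knockout and 5 of the 14 wild-type models. These junction and chain counts were not made for other genes, so they cannot be called particular to the Tex genes. Tex11, Tex19.1 and Tex101 had no assembled model in either library, and their ratios of -0.28, 0.41 and 0.33 did not depend on how models were summed.

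The 20 Tex genes under 1 FPKM were at most 0.713 FPKM in the knockout and 0.690 FPKM in the wild-type library, both values of Tex37. Above 0 in both libraries were 4 of them, Tex22, Tex28, Tex37 and Tex50. Tex13c1, Tex33, Tex36, Tex38 and Tex48 were above 0 in the knockout library alone, with values of 0.0271 to 0.263 FPKM, and Tex43 and Tex45 in the wild-type library alone, at 0.161 and 0.172 FPKM. The remaining 9, Tex13a, Tex24, Tex29, Tex35, Tex44, Tex46, Tex47, Tex52 and Tex55, were listed at 0 in both. Tex52 shares 90 exon bases with Foxm1, which was at 32.2 FPKM in the knockout and 39.6 FPKM in the wild-type library. Of 10 spermatid markers 5 reached 1 FPKM in at least 1 library, and all 10 summed to 18.4 FPKM in the knockout and 10.2 FPKM in the wild-type library. Prm2 and Acrv1 were listed at 0 in both libraries, and Tnp1, the most abundant of the 10, was at 8.36 FPKM in the knockout and 3.27 FPKM in the wild-type library.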

How the data were processed

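RNA of spermatogonial progenitor cells was poly(A)-selected, fragmented, copied with random primers and sequenced as paired reads of 100 nt, with no step that marks the strand, per the labels' protocols. Per the submitters' processing notes the build was mm10 and the tools included Cufflinks 2.1.1, TopHat2 2.0.8 and CASAVA 1.9. Their settings are not given in the sources used here. Every deposited file lists 30073 RefSeq transcripts and the models assembled from that library, with FPKM values, bounds and coverage by the authors. Counts are not given, so depth is unknown. Of 30079 RefSeq identifiers, 29451 were named by accession, 177 by the GENCODE M21 RefSeq table and 438 by exon overlap with GENCODE M21 of the same build, and 13 stayed unnamed. A model of at least 300 nt was added to the gene of the same strand whose exons it overlapped most, or, if it had no strand, to a gene holding at least 0.5 of its bases. Models below that length were dropped, since in the knockout library 608 of them summed to 1073460 FPKM. In the wild-type library 498 of them summed to 147497 FPKM, so the dropped part was unequal between the libraries. Compared genes had at least 1 FPKM in either library and a longest transcript of no less than 300 nt. No test was possible with 1 library per genotype. Every Tex gene of 1 FPKM or more was named in full, the others in brief, with up to 4 of the most abundant genes of each partner list. The members and lists were chosen with earlier results of these data known. Grouping by role, junctions and promoters was added after seeing the values. Gene sums were checked on a toy annotation only. Fold calls were checked on simulated gene values over 13797 genes, where 100 of 100 genes raised and 100 of 100 lowered 4-fold were recovered. That simulation changed gene values directly with little noise. It checks the arithmetic of the calls, and not how models were joined to genes or how fragments were shared among models. Alternatives were other pseudocounts, filters, scalings, thresholds and ways of summing a gene. Python 3.11.15, numpy 2.4.6 and pandas 2.3.3 were used. A further gene of the Tex name is not reported here.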

Additional observations from a re-analysis of the deposited data

How the results depend on the processing

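No paired analysis was possible because there was 1 library per genotype with no shared replicate number, and for the same reason no library could be left out. The count of Tex genes at least 2-fold higher, 1 as reported, was 0 with a pseudocount of 5, with a filter of 5 FPKM, at the exon level, at a 4-fold threshold and after subtracting the median ratio of 20 bins of transcript length, an alternative chosen after seeing the data. It was 2 with RefSeq transcripts only, 3 with the coverage attribute and 5 at a 1.5-fold threshold, against 11.7%, 10.4% and 22.7% of all genes. The count at least 2-fold lower was 0 in every alternative but RefSeq transcripts only, where it was 1, against 11.3% of all genes. The median ratio of 0.37 stayed between -0.04 and 0.55, the medians over genes of the ratios of opposite bounds, in all alternatives. It was -0.03 at the exon level, where 15 Tex genes passed the filter, and -0.01 after the length correction. Tex21 and Tex26 did not pass at the exon level, and Tex52 did, at 2.66 in the knockout and 3.27 in the wild-type library. The transcript of Tex52 was listed at 0 in both, and its exon level came from the bases shared with Foxm1. Centring on the median gene, 0.20, left 9 of 16 genes above 0. Single genes changed sign for 7 of 13 with RefSeq transcripts only, and for 3 of 14 at the exon level. With RefSeq transcripts only, the ratio was -0.71 for Tex14, -0.52 for Tex15 and -0.99 for Tex19.2. It was -3.42 for Tex261, the gene counted as lower there, and 5.88 for Tex10 and 1.05 for Tex30, those counted as higher. The FPKM values hang on how fragments were shared among models, and no depth per gene can be given.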
